A study of Mus musculus with 6 samples.

Results

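Glycolysis and hypoxia-response genes were followed through the cells of mouse brain microvessels as a set of 31 genes, chosen by symbol for their function, out of 32286 gene identifiers counted in every library. The set held 10 genes of upper glycolysis, 5 of lower glycolysis, 3 of pyruvate and lactate handling, 8 other hypoxia-induced genes and 5 genes of the hypoxia-inducible factor (HIF) subunits and their oxygen sensing. Each of the 31 genes had at least 1 unique molecular identifier (UMI, a count of captured transcript molecules) in the data. The data were 6 single-cell libraries, 3 Control and 3 Cldn5 iECKO. Control mice were C57Bl6 with the genotype Cldn5 fl/fl, R26 YFP/YFP. The iECKO mice carried the same alleles and Cdh5-creERT2+, a tamoxifen-inducible Cre recombinase driven by an endothelial promoter, so that the deletion of claudin-5, a tight junction protein of the blood-brain barrier, was made in endothelial cells and only in a share of them. All mice of both groups received tamoxifen by gavage, 100 µl of a 20 mg/ml solution in peanut oil and ethanol on 3 consecutive days at about 3 months of age. Microvessel fragments were captured with PECAM1 antibody on magnetic beads and dissociated, so the pericytes, smooth muscle cells and microglia described here are those carried along with the fragments. The YFP feature had 0 UMIs in all 6 libraries, and recombined cells could therefore not be marked by the reporter. The labels do not say how many mice made up a library, so each p-value speaks only for the spread among these 6 libraries.

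Glycolysis splits glucose into pyruvate in the cytosol, and endothelial cells draw much of their ATP from it, most of all when they sprout. When oxygen is low, the prolyl hydroxylases encoded by Egln1 and Egln3 no longer mark the HIF alpha subunits (Hif1a, Epas1) for destruction by the von Hippel-Lindau protein (Vhl), and the stabilised factor binds the core letters ACGTG or GCGTG in promoters and enhancers and raises most glycolytic enzymes, the lactate exporter Slc16a3 and stress genes such as Bnip3, Ankrd37 and Ddit4. Epas1 is the alpha subunit that brain endothelial cells are known to express strongly. HIF is controlled mainly at the protein level, which transcript counts do not measure.

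The upstream bases of 4 genes are shown because these genes are all described as hypoxia-induced and yet did not move together in the endothelial cells below. Each line gives the 250 bases before the annotated start, written 5′ to 3′ on the gene's strand, from RefSeq on GRCm38.p6, with ACGTG or GCGTG on either strand (CACGT or CACGC when read on the gene's strand) in capitals. The Pgk1 window is chrX:106186850-106187099 on the plus strand. The Ankrd37 window is chr8:45999851-46000100, the Bnip3 window chr7:138909507-138909756 and the Ddit4 window chr10:59951771-59952020, all on the minus strand.
Pgk1: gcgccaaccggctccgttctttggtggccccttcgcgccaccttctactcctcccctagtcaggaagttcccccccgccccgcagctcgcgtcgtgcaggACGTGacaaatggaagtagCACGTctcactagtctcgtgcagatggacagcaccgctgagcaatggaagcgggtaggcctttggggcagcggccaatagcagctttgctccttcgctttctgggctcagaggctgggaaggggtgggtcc
Ankrd37: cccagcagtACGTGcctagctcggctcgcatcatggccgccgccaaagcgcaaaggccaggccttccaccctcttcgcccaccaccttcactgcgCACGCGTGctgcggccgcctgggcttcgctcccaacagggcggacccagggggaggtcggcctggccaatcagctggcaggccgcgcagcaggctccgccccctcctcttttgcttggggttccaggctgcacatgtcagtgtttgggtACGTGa
Bnip3: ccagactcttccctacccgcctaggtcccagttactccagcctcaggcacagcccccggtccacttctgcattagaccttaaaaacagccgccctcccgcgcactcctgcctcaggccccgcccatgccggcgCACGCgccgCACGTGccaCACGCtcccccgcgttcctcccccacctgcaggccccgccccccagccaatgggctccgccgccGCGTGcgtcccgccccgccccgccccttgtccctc
Ddit4: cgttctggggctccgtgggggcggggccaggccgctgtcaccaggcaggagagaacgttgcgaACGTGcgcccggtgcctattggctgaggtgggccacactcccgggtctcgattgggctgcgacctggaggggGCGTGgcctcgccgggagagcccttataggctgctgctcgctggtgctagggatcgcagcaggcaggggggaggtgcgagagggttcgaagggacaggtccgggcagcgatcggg
A script found 2 matches in the Pgk1 window, 4 in the Ankrd37 window, 5 in the Bnip3 window and 2 in the Ddit4 window. The Bnip3 matches include the letters CACGTG, which are also an E-box and count as a match on each strand. RefSeq windows were at hand for 29 of the 31 genes, all but Ndrg1 and Epas1. At least 1 match was present in a window of 25 of these 29 genes (86.2%), beside 11226 of all 27025 genes with a window (41.5%). These shares were matched neither for base composition nor for windows per gene. The 29 genes had 42 windows and all genes 32851, and any matching window counted. Whether the set holds more matches than like promoters was not tested. A match describes letters in a window and not a bound site.

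The libraries held 2714 to 7420 barcodes and 15727366 to 49350802 UMIs, of which 2207 to 6745 barcodes passed the filters on depth, genes detected and mitochondrial share. Of these, 48 to 400 per library were then removed as predicted doublets. Pairs of libraries shared 0 to 12 barcodes. Clusters made without the 31 genes and named by marker genes gave 1888 to 4811 endothelial cells per library, 37 to 81 pericytes, 28 to 246 smooth muscle cells and 35 to 157 microglia. In no library was any of a class's own markers at 0, and their sums ran from 21970 to 30280 CPM in pericytes, 41230 to 73020 CPM in smooth muscle and 33540 to 44930 CPM in microglia. Cldn5 in the summed endothelial cells was 4836, 4344 and 4817 CPM (counts scaled to a common library total) in the Control libraries 1 to 3, against 2822, 2295 and 2795 CPM in the iECKO libraries. All iECKO libraries were lower than all Control libraries, a log2 difference of -0.80 ± 0.20 (SE, n = 3 and 3; edgeR adjusted p = 0.281, and 0.00768 with the replicate number as a block). The library iECKO 1 stood apart: 8.67% of its endothelial barcodes were removed for carrying markers of another class, beside 0.784 to 1.40% in the other libraries. An endothelial subcluster led by S100a6, which carried no zone name and is left out of the zones below, made up 17.2% of the endothelial cells of iECKO 1, 2.97% and 1.16% in iECKO 2 and 3, and 0.249 to 0.835% in the Control libraries. Another subcluster without a zone name, led by Plvap, is left out as well and made up 2.22 to 5.3% of endothelial cells per library.

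Endothelial cells carried transcripts of the whole glycolytic chain, with Epas1 present well above the floor of counting in every library. Levels below are CPM of a class's summed UMIs in 1 library, scaled with edgeR's TMM factors, and since 3′ counts are not scaled by transcript length they are compared between samples and not between genes. In such sums, fewer cells with a transcript and less transcript per cell cannot be told apart. Epas1 lay between 951 and 1341 CPM over the 6 endothelial sums (median 1135). Hif1a lay between 104 and 158 CPM (median 135). Ndrg1, a stress-response gene, ranged from 400 to 556 CPM, and neither this gene nor the HIF subunits separated the genotypes. Gapdh, the dehydrogenase that opens lower glycolysis, ranged from 199 to 524 CPM. Pkm, pyruvate kinase, ranged from 236 to 387 CPM. Ldha, the lactate dehydrogenase subunit that turns pyruvate into lactate, ranged from 226 to 414 CPM, with its highest value, like those of Gapdh and Pkm, in iECKO 1. At the other end, Hk2 (39 UMIs in all endothelial cells), Egln3 (47 UMIs) and the brain aldolase Aldoc (140 UMIs) were close to absent from endothelium, while the hexokinase Hk1 lay between 54.2 and 70.5 CPM. Reads of Eno1 can be shared with the intronless copy Eno1b, which was at most 2.20 CPM in endothelium.

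**Figure D1:**
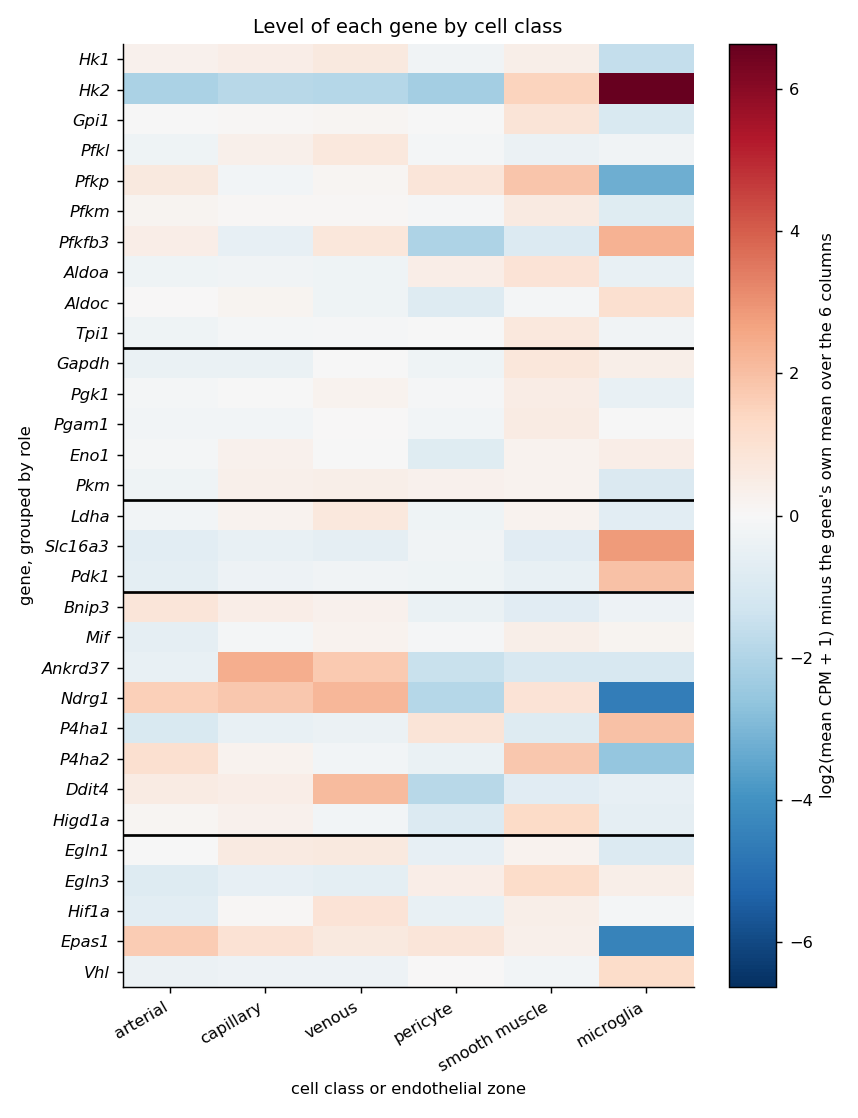
Colour gives log2(mean CPM + 1) of each gene (rows, grouped by role with black lines) in each endothelial zone or cell class (columns; mean of 6 libraries) minus the gene's own mean over the 6 columns. Red is above and blue below that mean: Hk2, Slc16a3, Pdk1 and P4ha1 are reddest in microglia, Ndrg1, Epas1 and Pfkp are bluest there, and Ankrd37 is reddest in capillary and venous endothelium.

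Which endothelial cells of the iECKO brains carried more of the set was asked with Apln, the gene of the peptide apelin, which marks sprouting endothelial cells and is no gene of the set. Among capillary cells with at least 2000 UMIs, Apln-positive cells (at least 2 Apln UMIs) had higher transcripts of 8 of the 13 glycolysis genes tested than cells with none, together with higher Ankrd37, Egln3 and Hif1a, while Ndrg1, Bnip3, Ddit4 and Epas1 were lower. Of 29 genes of the set tested, 14 were higher (12.3% of all 10788 genes tested were called higher) and 4 lower (8.56% of all genes). The median log2 difference of the 29 was 0.33, beside -0.01 over all genes. The comparison used the 3 iECKO libraries, with the library as a block, and had 189, 71 and 47 positive cells against 2481, 1088 and 2147 undetected cells in iECKO 1 to 3.

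In upper glycolysis 4 of 8 genes tested rose and none fell. Pfkp, the platelet-type phosphofructokinase subunit, was 50.7, 57.7 and 37.2 CPM in the Apln-positive cells of iECKO 1 to 3 and 24.1, 22.2 and 14.2 CPM in the undetected cells, so that every positive sum lay above every undetected sum (log2 difference 1.28 ± 0.16, SE; edgeR adjusted p = 1.14e-05). Pfkfb3, which makes the activator of phosphofructokinase and drives endothelial sprouting, was 21.8, 37.2 and 11.5 CPM against 9.47, 12.9 and 8.19 CPM. Pfkfb3 was thus higher in 3 of 3 libraries, with overlapping ranges and the smallest step in iECKO 3 (1.22 ± 0.24; edgeR adjusted p = 0.000768). Aldoa (0.61 ± 0.09) and Gpi1 (0.49 ± 0.11) rose as well, and Hk1 (0.17 ± 0.14), Tpi1 (0.11 ± 0.11) and Pfkl (0.33 ± 0.13) did not pass the test. Pfkm, the muscle-type phosphofructokinase subunit, was 5.31, 6.41 and 8.595 CPM against 10.5, 9.60 and 13.4 CPM, and its difference did not pass either (-0.74 ± 0.31; edgeR adjusted p = 0.106).

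Lower glycolysis rose in 4 of 5 genes. Gapdh was 827, 400 and 519 CPM in positive cells and 448, 224 and 328 CPM in undetected cells. Gapdh was higher within each library although the ranges overlapped, because the undetected cells of iECKO 1 were above the positive cells of iECKO 2 (0.84 ± 0.09; edgeR adjusted p = 1.23e-06). Pgk1, the phosphoglycerate kinase whose upstream bases are printed above, was 156, 108 and 97.4 CPM against 87.5, 54.0 and 64.8 CPM, with no overlap between the groups (0.85 ± 0.11; edgeR adjusted p = 1.82e-05). Pgam1 (0.55 ± 0.13) and Pkm (0.49 ± 0.09) rose too, and Eno1 (0.25 ± 0.14) did not pass. Ldha rose by 0.48 ± 0.09, the only call among the 3 genes of pyruvate and lactate handling.

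The other hypoxia-induced genes split, with 3 higher and 3 lower of 8. Ankrd37, an ankyrin repeat protein known as a HIF target, was 795, 168 and 90.2 CPM in positive cells and 364, 79.5 and 46.2 CPM in undetected cells. The gap between libraries was wider than the gap between the cells, with iECKO 1 highest on both sides, and the step within each library was similar (1.11 ± 0.10; edgeR adjusted p = 2.36e-07). P4ha1, a collagen prolyl hydroxylase subunit, rose by 0.78 ± 0.14 and the cytokine gene Mif by 0.62 ± 0.11. Ndrg1 was 266, 149 and 193 CPM in positive cells and 663, 447 and 401 CPM in undetected cells, lower in all 3 libraries with no overlap (-1.27 ± 0.11; edgeR adjusted p = 9.70e-08). Bnip3, a mitophagy receptor, was 18.3, 21.8 and 27.2 CPM against 48.7, 43.8 and 45.5 CPM, also without overlap (-1.08 ± 0.18; edgeR adjusted p = 0.000215). The Bnip3 call was lost when Apln was counted after thinning each cell to 2000 UMIs (-0.81, edgeR adjusted p = 0.0522). That gate left 79, 34 and 20 positive cells. Ddit4, an inhibitor of mTOR signalling, was 46.0, 24.4 and 65.9 CPM against 91.8, 65.4 and 119 CPM, lower in every library with slightly overlapping ranges (-0.99 ± 0.14; edgeR adjusted p = 2.76e-05). The printed upstream bases of the falling genes Bnip3 and Ddit4 hold the same core letters as those of the rising Pgk1 and Ankrd37. Windows with a match belonged to 12 of the 14 rising genes, 2 of the 2 falling genes with a window and 9 of the 11 uncalled genes.

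The HIF alpha subunits moved in opposite directions. Epas1 was 690, 618 and 723 CPM in positive cells and 1144, 1146 and 888 CPM in undetected cells, lower without overlap (-0.60 ± 0.10; edgeR adjusted p = 0.000265). Hif1a was 188, 147 and 160 CPM against 159, 137 and 116 CPM, a smaller step upwards in 3 of 3 libraries (0.31 ± 0.10; edgeR adjusted p = 0.0427). Egln3, an oxygen-sensing hydroxylase that HIF itself induces, had 21 UMIs in the positive cells and 0 in the many more undetected cells, at least 83.9-fold higher against a floor of 3 counts over the group. Vhl (0.05 ± 0.24) and Egln1 (0.10 ± 0.11) did not pass.

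Among genes next to the set, Adm, the gene of the vessel-dilating peptide adrenomedullin, was 742, 274 and 215 CPM in positive cells and 225, 51.8 and 30.04 CPM in undetected cells (2.27, edgeR adjusted p = 0.000605). In the list of other HIF pathway genes 7 were higher and 4 lower of 18 tested. Among glucose and lactate transporters and other isozymes, 1 rose and 2 fell of 14 tested. The fall included Slc2a1, the glucose transporter of the blood-brain barrier, at 1540, 1162 and 1159 CPM against 2386, 1455 and 1315 CPM (-0.34, edgeR adjusted p = 0.0142). Slc16a1, the lactate and ketone transporter of brain endothelium, fell by 0.70 on the log2 scale (edgeR adjusted p = 3.25e-05). In the pentose phosphate pathway, which branches from glycolysis, Tkt alone of 8 genes tested rose (0.54).

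Positive cells were deeper, with median UMIs of 6742, 9310 and 11894 against 4188, 5163 and 5554. With cells matched on depth, an alternative added after seeing the data, 9 of 24 genes tested were higher and 4 lower. Under the cluster definition, the Apln-led subcluster against the other capillary cells, 17 were higher and 5 lower, and Pfkfb3 did not pass (0.47, edgeR adjusted p = 0.0665). The shares of all genes called under these alternatives are not given here. The marker sum of astrocytes, 9 genes, was 119 to 216 CPM in positive cells and 90.0 to 208 CPM in undetected cells. The 7 neuron markers summed to 44.8, 30.8 and 55.9 CPM in positive cells of iECKO 1 to 3 and to 27.1, 13.7 and 14.8 CPM in undetected cells, without overlap, with up to 4 of them at 0 in a library. Capillary markers were lower in the positive cells of every library, 3039 to 4484 CPM against 5106 to 6617 CPM, and so were the 16 dissociation-stress genes, at 8678, 7849 and 5323 CPM against 9268, 8808 and 8235 CPM. The part of these markers in the result was not tested. Control capillaries had 13, 17 and 11 positive cells, too few for a sum of their own to be tested. In those few cells, with CPM not scaled by TMM, Ankrd37 was 201, 145 and 128 CPM (25, 22 and 18 UMIs) against 51.6, 71.2 and 68.5 CPM in undetected cells. Gapdh, Aldoa, Gpi1, Pgk1, Pkm, Mif, Hif1a and Egln3 were also higher in 3 of 3 Control libraries, some by little, and Ndrg1, Bnip3, Ddit4 and Epas1 lower in 3 of 3. Hif1a was 104, 118 and 199 CPM (13, 18 and 28 UMIs) against 101, 116 and 147 CPM. Pkm was 320 against 309 CPM in Control 3. Egln3 had 2, 3 and 1 UMIs in positive cells, and Bnip3 1, 3 and 4. Tpi1, not called in iECKO, was higher in 3 of 3 as well. The share of all genes with such patterns is not given here. Of the other genes called higher in iECKO, Pfkp and Pgam1 were higher in 2 of 3 Control libraries, and Pfkfb3, P4ha1 and Ldha in 1 of 3.

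**Figure D2:**
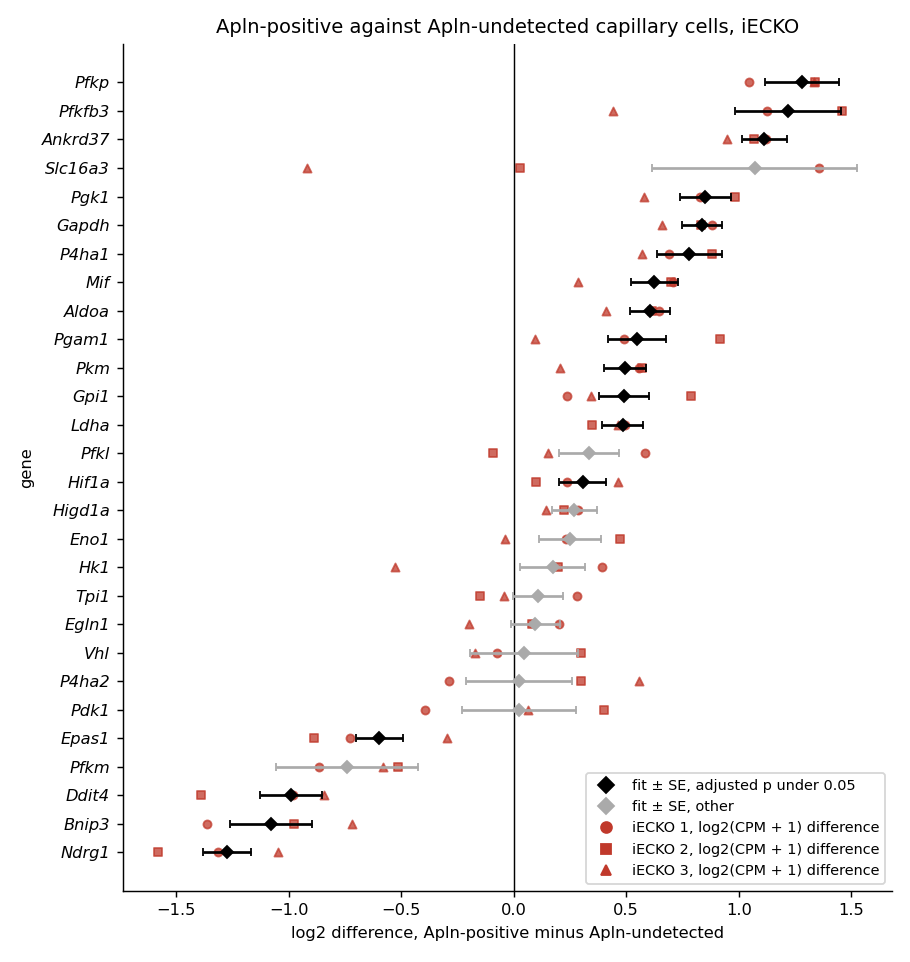
Black and grey diamonds give the log2 difference between Apln-positive and Apln-undetected capillary cells from edgeR with its SE (black, adjusted p under 0.05), and red symbols the log2(CPM + 1) difference in each of the 3 iECKO libraries; Egln3, with 0 UMIs on 1 side, is not drawn. Pfkp at the top lies at 1.28 and Ndrg1 at the bottom at -1.27, and all library points of Epas1, Ddit4, Bnip3 and Ndrg1 lie left of 0.

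Whether the genotype moved the set in whole classes was asked next, and the answer depended on whether libraries were paired by replicate number. In capillary cells 5 glycolysis genes, Pfkfb3, Aldoa, Gapdh, Pgk1 and Pkm, were higher in iECKO than in Control with the replicate number as a block (2.53% of all genes were called higher and 0.879% lower), and no gene of the set was called without it (0.0479% of all genes higher, 0.016% lower). Unblocked, edgeR called 0 of 29 genes tested. An unadjusted p under 0.05 was reached by 6 of the 29, and the share of all genes at that level is not given here. DESeq2 called 0 as well. The block raised the count to 5 higher and 0 lower. The median log2 difference of the 29 was 0.21 in both fits, beside 0.00 over all genes.

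The 5 capillary genes differed in how cleanly the libraries parted. Pfkfb3 was 6.12, 7.74 and 6.25 CPM in Control 1 to 3, and the iECKO libraries had 10.9, 14.96 and 8.51 CPM, with no overlap (blocked 0.77 ± 0.16; edgeR adjusted p = 0.0330). Pgk1 was 54.9, 47.3 and 52.4 CPM against 95.4, 59.7 and 65.9 CPM, also without overlap (blocked 0.51 ± 0.12; edgeR adjusted p = 0.0416). Pkm was 284, 248 and 278 CPM against 448, 317 and 360 CPM and did not overlap either (blocked 0.49 ± 0.10; edgeR adjusted p = 0.0332). In these genes iECKO 1 or iECKO 2 stood highest. Aldoa, the muscle-type aldolase that most tissues share, was 256, 186 and 216 CPM against 455, 232 and 277 CPM, with iECKO 2 below Control 1 (blocked 0.52 ± 0.12; edgeR adjusted p = 0.0433). Gapdh was 342, 182 and 237 CPM against 488, 245 and 335 CPM and overlapped between the groups, though each iECKO library lay above the Control library of its number (blocked 0.50 ± 0.09; edgeR adjusted p = 0.0194).

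The remaining genes of the set did not pass in capillaries. In upper glycolysis 2 of 9 genes were called, in lower glycolysis 3 of 5, in pyruvate and lactate handling 0 of 3, among other hypoxia-induced genes 0 of 8 and among HIF subunits and oxygen sensing 0 of 4, all under the block. Ankrd37 was 56.3, 79.3 and 61.4 CPM in Control and 417, 90.9 and 48.1 CPM in iECKO. The high value was in iECKO 1 alone, and the blocked log2 difference was 0.89 ± 1.02 (edgeR adjusted p = 0.734). Hif1a was 108, 127 and 132 CPM against 162, 138 and 118 CPM, and Epas1 1074, 1271 and 994 CPM against 1094, 1081 and 877 CPM. Both HIF subunits overlapped between the genotypes. Bnip3 was 50.6, 57.1 and 46.8 CPM against 45.1, 40.9 and 44.0 CPM, lower without overlap but not called (blocked -0.22 ± 0.11; edgeR adjusted p = 0.301).

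Of the 3 related lists, under the block, transporters and other isozymes had 1 gene higher and 1 lower of 17. Slc16a1 was 594, 971 and 993 CPM in Control and 370, 392.1 and 660 CPM in iECKO (-0.84, edgeR adjusted p = 0.0178), with iECKO 3 above Control 1. Mpc1, a subunit of the mitochondrial pyruvate carrier, was 108, 80.5 and 86.6 CPM against 134, 113 and 115 CPM, without overlap (0.43, edgeR adjusted p = 0.0369). None of 21 other HIF pathway genes and none of 9 pentose phosphate genes was called.

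The capillary calls changed with the libraries and cells included. With the pair numbered 2 left out under the block, none of the 29 genes passed. Without the pair numbered 1 only Gapdh passed, and without the pair numbered 3 there were 9 higher and 2 lower. The Apln-led subcluster made up 0.429, 0.333 and 0.257% of endothelial cells in the Control libraries, against 41.2, 18.0 and 3.08% in iECKO 1 to 3. With this subcluster left out of the capillary sums, none of the 29 passed. Pfkfb3 was then 0.62 ± 0.16 (blocked; edgeR adjusted p = 0.0561), Gapdh 0.11, Aldoa 0.19, Pkm 0.17 and Pgk1 0.12. Leaving it out removed 1921 of 3222 capillary cells in iECKO 1 but 19 of 3633 in Control 1. The groups thus lost unlike shares of their cells, and the part of the subcluster in the genotype difference was not tested. These exclusions were chosen after seeing the data, and the shares of all genes called under them are not given here. The 8 capillary markers summed to 8496 to 9368 CPM in Control and 4891 to 6484 CPM in iECKO. The 9 astrocyte markers summed to 62.8 to 73.5 CPM in Control and 90.3 to 211 CPM in iECKO, with up to 2 of them at 0 in a library, and the 7 neuron markers to 11.02 to 11.7 CPM against 16.5 to 29.2 CPM. The part of these markers in the result was not tested.

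**Figure D3:**
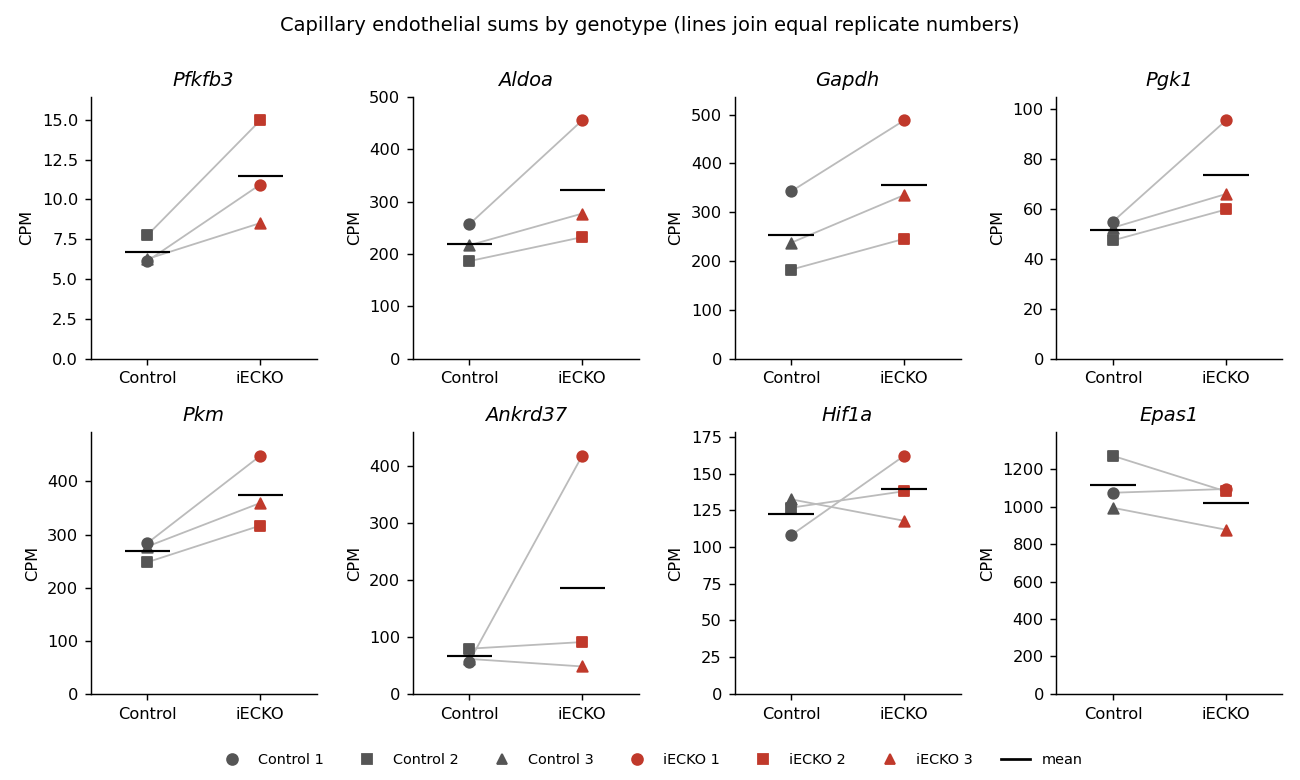
CPM in the capillary sums of each library for 8 genes, with Control in grey and iECKO in red, symbols and grey lines joining equal replicate numbers, and black bars for group means. All lines rise for Pfkfb3, Aldoa, Gapdh, Pgk1 and Pkm, and Ankrd37 rises to 417 CPM in iECKO 1 only.

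In the other classes edgeR called no gene of the set between genotypes with or without the block, and neither did DESeq2. At an unadjusted p under 0.05 without the block there were 3 of 29 genes tested in all endothelial cells, 1 of 27 in arterial, 1 of 27 in venous, 0 of 15 in pericytes, 1 of 23 in smooth muscle and 4 of 23 in microglia. The share of all genes called in these unblocked tests was 0.0% in each direction in endothelial, arterial and venous cells, 0.0317% in each direction in pericytes, 0.0145% higher and 0.0% lower in smooth muscle, and 0.0474% higher and 0.0% lower in microglia. Pgk1 and Pkm in the summed endothelium did not overlap between the genotypes. Pgk1 was 59.4, 47.7 and 54.6 CPM in Control and 94.5, 59.6 and 67.1 CPM in iECKO. With the block, 11 of 29 genes tested in endothelial cells had an unadjusted p under 0.05, 1 of 27 in arterial, 7 of 27 in venous, 0 of 15 in pericytes, 5 of 23 in smooth muscle and 7 of 23 in microglia. The blocked shares of all genes called higher and lower were 1.11% and 0.453% in endothelial, 0.246% and 0.0569% in arterial, 0.465% and 0.31% in venous cells, 0.571% and 0.127% in pericytes, 0.13% and 0.101% in smooth muscle, and 0.347% and 0.0158% in microglia. All shares of genes called in this paragraph are at an adjusted p under 0.05. They are therefore no background for the counts at an unadjusted p, for which the shares of all genes are not given here. Small sums limit what could be detected, above all in pericytes, with 92660 to 203323 UMIs per library.

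The zones of the vascular tree differed in which part of the set they carried. Arterial cells had more Epas1, Pfkfb3, Pfkp, P4ha2 and Bnip3 and less Ankrd37, Hif1a and Egln1 than capillary cells, and venous cells had more Ddit4, Hif1a, Pfkfb3 and several lower glycolysis genes. Zones were compared within libraries over all 6, with the library as a block. Zone names come from clusters of the same cells, though the 31 genes were kept out of the genes used to cluster.

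Arterial against capillary, 5 of 27 genes tested were higher (15.1% of all genes) and 9 lower (12.8%), with a median of -0.12 beside -0.01 over all genes. Epas1 ran from 1372 to 2118 CPM in arterial sums (median 1718) and from 877 to 1271 CPM in capillary sums (median 1077). The ranges did not overlap, and the difference was 0.72 ± 0.06 (edgeR adjusted p = 4.09e-07). Hif1a ran the other way, 60.2 to 93.1 CPM in arterial (median 77.7) and 108 to 162 CPM in capillary cells (median 130), again without overlap (-0.74 ± 0.06; edgeR adjusted p = 4.64e-07). Ankrd37 was 9.10 to 29.96 CPM in arterial and 48.1 to 417 CPM in capillary cells, with the arterial maximum below the capillary minimum (-2.63 ± 0.25; edgeR adjusted p = 0.000303).

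Of the enzymes, Pfkp was 26.9 to 45.8 CPM (median 36.8) in arterial and 12.8 to 27.6 CPM (median 17.6) in capillary cells, higher in 6 of 6 libraries (0.95 ± 0.10; edgeR adjusted p = 6.09e-06). Pfkfb3 rose by 1.04 ± 0.11, at 10.5 to 28.8 CPM against 6.12 to 14.96 CPM. P4ha2, the other collagen prolyl hydroxylase subunit, was 13.1 to 50.9 CPM against 7.30 to 30.03 CPM, and its 0.92 ± 0.09 stood in 6 of 6 libraries despite overlapping ranges. Bnip3 rose by 0.41 ± 0.08. Lower in arterial cells were Egln1 at 61.5 to 100 CPM against 94.2 to 145 CPM (-0.61 ± 0.08), Pkm at 156 to 237 CPM against 248 to 448 CPM (-0.58 ± 0.10), Pfkl, the liver-type phosphofructokinase subunit, at 39.9 to 50.2 CPM against 60.9 to 78.7 CPM (-0.56 ± 0.07), and, by 0.36 to 0.51 in size, P4ha1, Mif, Eno1 and Ldha. Pkm and Pfkl did not overlap between the zones. Among related genes Adm fell by 3.04 on the log2 scale and Slc16a1 by 2.10, while Bpgm (1.87) and Prps2 (2.68) rose. The list of other HIF pathway genes had 3 higher and 6 lower of 21, the transporters and other isozymes 4 and 1 of 15, and the pentose phosphate list 1 and 0 of 9.

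Venous against capillary, 11 of 28 genes tested were higher (22.9% of all genes) and 3 lower (20.8%), with a median of 0.09 beside 0.00 over all genes. Ddit4 was 225 to 372 CPM in venous cells (median 337) and 60.6 to 116 CPM in capillary cells (median 105), 1.68 ± 0.07 higher without overlap (edgeR adjusted p = 2.67e-13). Hif1a was 157 to 254 CPM (median 243) against 108 to 162 CPM, higher in 6 of 6 libraries (0.82 ± 0.07; edgeR adjusted p = 4.58e-09). Pfkfb3 was 13.02 to 46.1 CPM against 6.12 to 14.96 CPM (1.32 ± 0.16; edgeR adjusted p = 1.31e-05). Venous cells thus had more Hif1a than capillary cells while arterial cells had less, the reverse of Epas1, which was 748 to 1012 CPM in venous cells (-0.29 ± 0.05; edgeR adjusted p = 9.20e-05).

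Ldha, at 303 to 577 CPM in venous cells against 222 to 430 CPM, rose by 0.47 ± 0.05, and Pfkl, at 73.6 to 106 CPM against 60.9 to 78.7 CPM, by 0.40 ± 0.06. Ndrg1 (0.40), Gapdh (0.39), Mif (0.30), Pgk1 (0.26), Hk1 (0.21) and Pgam1 (0.17) were higher as well. Higd1a, a mitochondrial protein induced by hypoxia, was lower, 71.0 to 119 CPM against 96.7 to 159 CPM (-0.46 ± 0.06; edgeR adjusted p = 3.63e-06), and P4ha2 fell by 0.48 ± 0.13, at 3.57 to 26.8 CPM against 7.30 to 30.03 CPM. With cells matched on depth 8 were higher and 3 lower. Related genes included Hif3a (2.48), Ldhb, the subunit favouring lactate use (1.29), Hmox1, heme oxygenase (0.93), and Adm (-2.12). The related lists had 7 higher and 7 lower of 20 other HIF pathway genes, 5 and 2 of 15 transporters and isozymes, and 3 and 1 of 9 pentose phosphate genes. The 16 dissociation-stress genes summed to 11580 to 19940 CPM in venous and 8003 to 10490 CPM in capillary cells, and their part in the venous levels was not tested.

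**Figure D4:**
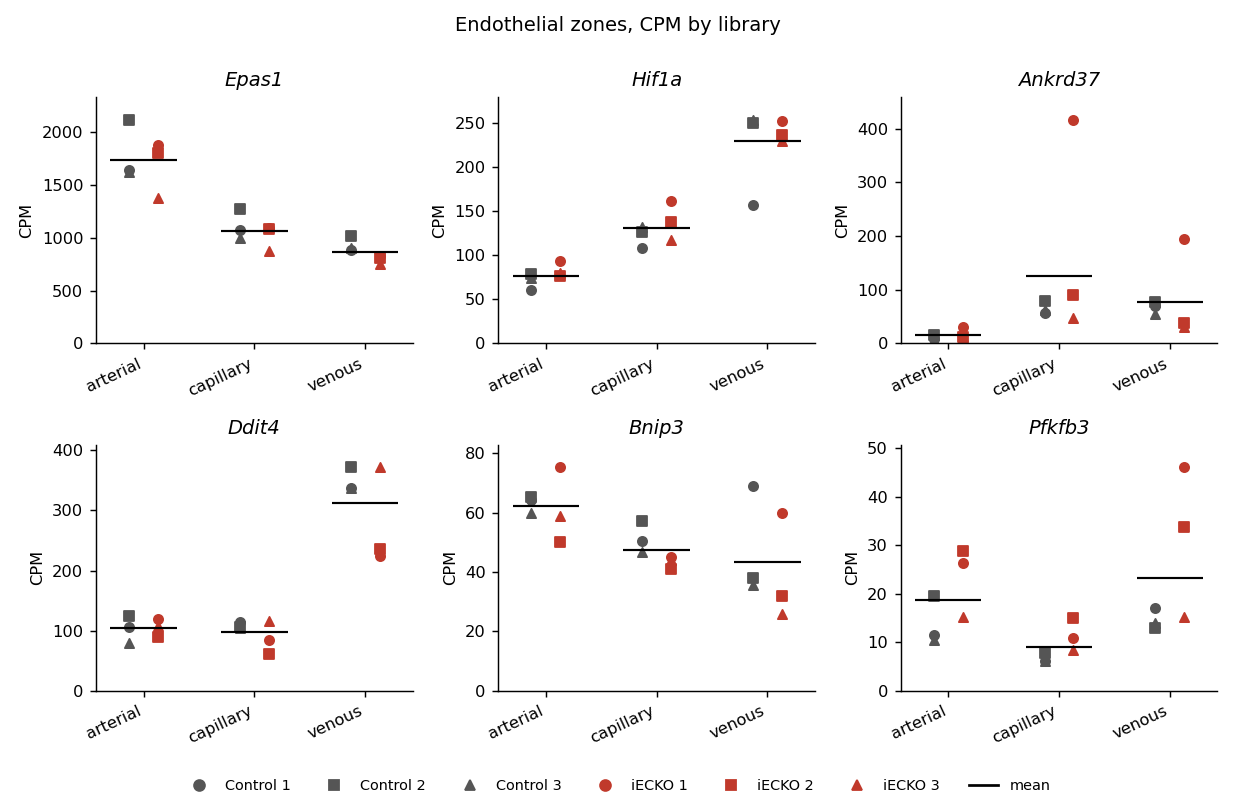
CPM by library in arterial, capillary and venous sums for 6 genes, Control in grey and iECKO in red, with symbols for replicate numbers and bars for the mean of 6 libraries. Epas1 steps down and Hif1a up from arterial to venous cells, Ddit4 is high in venous cells, and Ankrd37 of iECKO 1 stands apart at 417 CPM in capillary and 195 CPM in venous cells.

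Whether the genotype difference itself varied between zones was tested as an interaction with libraries as blocks. Against capillary cells, the genotype difference in venous cells was lower for Ankrd37 alone among 28 genes tested (0.654% of all genes were called lower and 0.195% higher). Ankrd37 in venous cells was 69.5, 77.2 and 55.3 CPM in Control and 195, 38.7 and 31.3 CPM in iECKO. In venous cells iECKO 2 and 3 lay below every Control library and iECKO 1 above, and the interaction was -1.04 ± 0.15 (edgeR adjusted p = 0.00170). In arterial cells the interaction was called for 0 of 28 genes by edgeR and by DESeq2 (0.0675% of all genes lower, 0.00844% higher). An unadjusted p under 0.05 was reached by 8 of the 28, and the share of all genes at that level is not given here. Slc16a1 was also called in venous cells (0.79, edgeR adjusted p = 0.00254).

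Cells of the iECKO libraries were further compared by their own Cldn5 transcripts, with 0 UMIs against at least 2, in endothelial cells with at least 2000 UMIs. Cells without Cldn5 had less Pkm, Ankrd37, Ddit4 and Hif1a and more Epas1. Of the set, 1 of 28 genes tested was higher (6.35% of all genes) and 11 were lower (6.21%), with a median of -0.17 beside 0.00 over all genes. Ankrd37 was 238, 45.1 and 23.5 CPM in undetected and 337, 76.6 and 41.9 CPM in detected cells of iECKO 1 to 3, lower in 3 of 3 (-0.58 ± 0.08; edgeR adjusted p = 2.50e-07). Pkm was 268, 192 and 246 CPM against 415, 296 and 348 CPM, without overlap (-0.55 ± 0.06; edgeR adjusted p = 6.42e-10). Hif1a was 124, 94.2 and 97.5 CPM against 168, 150 and 124 CPM, lower in 3 of 3 libraries, with the undetected cells of iECKO 1 level with the detected cells of iECKO 3 (-0.43 ± 0.07; edgeR adjusted p = 1.16e-05). Ddit4 was 78.6, 51.1 and 108 CPM against 110, 92.9 and 143 CPM, lower in each library with overlapping ranges (-0.48 ± 0.08; edgeR adjusted p = 6.06e-06). Pfkl fell by 0.37 ± 0.09, and Tpi1, Ldha, Egln1, Mif, Gapdh and Gpi1 by 0.20 to 0.33. The Pfkl call was lost with DESeq2 (-0.37) and in capillary cells alone (-0.22). It was also lost with cells matched on depth (-0.32) and without iECKO 1 (-0.31). Epas1 was the gene that rose, 1373, 1395 and 996 CPM against 1122, 1109 and 946 CPM (0.26 ± 0.06; edgeR adjusted p = 0.000900).

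The same gate in the Control libraries, where no Cre was present, gave 5 genes higher and 10 lower. The share of all genes called there is not given here. Genes of the set thus differed along this gate without any deletion, between cells that also differed in the marker sums given below. In Control cells Ankrd37 was 7.18, 1.49 and 3.103 CPM without Cldn5 and 51.8, 69.7 and 51.4 CPM with it. Epas1 did not pass in the Control gate (0.14, edgeR adjusted p = 0.399). Within capillary cells alone, an alternative added after seeing the data, 0 were higher and 8 lower, and Epas1 no longer passed (0.20, edgeR adjusted p = 0.130). DESeq2 called 1 higher and 5 lower. Without iECKO 1 there were 1 higher and 6 lower, and without iECKO 2 there were 0 higher and 9 lower. Undetected cells were shallower, with median UMIs of 3513, 4027 and 4811 against 5326, 5968 and 6385, and matching on depth left 2 higher and 6 lower. In the iECKO libraries the 9 venous markers summed to 764, 613 and 560 CPM in undetected and to 2215, 1703 and 1132 CPM in detected cells, and the dissociation-stress genes to 7553, 7686 and 7367 CPM against 11340, 10180 and 8696 CPM. Both sums were lower without overlap in the undetected cells, and their part in the result was not tested. In the Control libraries the venous markers summed to 114, 109 and 99.3 CPM in undetected and to 1033, 1512 and 1178 CPM in detected cells. The 9 astrocyte markers summed there to 251, 230 and 237 CPM against 66.9, 72.5 and 69.3 CPM. The dissociation-stress genes were higher in the undetected Control cells of each library, at 14460, 14620 and 10180 CPM against 10630, 12250 and 8642 CPM.

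Mural cells were compared next. Against endothelial cells of the same libraries, pericytes, the cells that wrap capillaries, had more P4ha1, Aldoa and Pfkp and far less Ankrd37, Ndrg1 and Ddit4. Of 28 genes tested 3 were higher (16.7% of all genes) and 11 lower (25.4%), with a median of -0.15, equal to that over all genes. P4ha1 was 56.1 to 129 CPM in pericytes (median 95.7) and 19.4 to 54.2 CPM in endothelium (median 35.3), without overlap (1.53 ± 0.20; edgeR adjusted p = 4.95e-14). Aldoa was 333 to 531 CPM against 187 to 447 CPM, higher in 6 of 6 libraries (0.78 ± 0.12; edgeR adjusted p = 2.30e-09). Pfkp was 15.3 to 57.3 CPM against 17.8 to 30.4 CPM, higher in 5 of 6 (0.81 ± 0.27; edgeR adjusted p = 0.00958). The Pfkp call was lost without iECKO 3 (0.61) and with control libraries only (0.53), and its sign turned to -0.72 under stricter cell filters (edgeR adjusted p = 0.733), which left only Control 2 and Control 3, with 29 and 33 pericytes, so that the filters and the loss of libraries cannot be told apart.

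Ndrg1 was 0 to 61.9 CPM in pericytes against 400 to 556 CPM in endothelium (-3.64 ± 0.19; edgeR adjusted p = 7.24e-78). Ankrd37 was 0 to 21.7 CPM, 9 UMIs in all, against 39.3 to 318 CPM (-3.65 ± 0.35; edgeR adjusted p = 1.33e-24). Ddit4 was 0 to 39.8 CPM against 88.0 to 147 CPM (-2.50 ± 0.25; edgeR adjusted p = 3.06e-22). None of these 3 genes overlapped between the classes. Higd1a, at 35.1 to 66.3 CPM against 89.5 to 156 CPM, fell by 1.07 ± 0.20 and Eno1, at 5.43 to 51.3 CPM against 31.8 to 117 CPM, by 1.00 ± 0.26. The Eno1 call was lost with control libraries only (-0.69, edgeR adjusted p = 0.137) and under stricter cell filters (-0.46, edgeR adjusted p = 0.698). Epas1 was 830 to 1110 CPM in pericytes and did not pass (-0.21 ± 0.11; edgeR adjusted p = 0.117), while Hif1a was 70.1 to 102 CPM and lower (-0.56 ± 0.17; edgeR adjusted p = 0.00412). Pericyte sums rest on few cells, and 27.2 to 68.7% of barcodes named pericyte were removed as mixed with other classes. Markers of smooth muscle and fibroblasts were no ground for removal. The 8 smooth muscle markers summed to 3518 to 7352 CPM in pericytes and to 16.9 to 45.5 CPM in endothelium, and their part was not tested. With cells matched on depth 6 genes of 16 tested were higher and 2 lower. Some of the lower genes named above were not among those tested at matched depth. The dissociation-stress genes summed to 1505 to 2953 CPM in pericytes, below endothelium without overlap, and their part was not tested. Related genes were led by Ndufa4l2, a HIF target and pericyte marker, at 754 to 1209 CPM against 1.13 to 2.73 CPM, and by the fall of the barrier transporters Slc16a1 (-5.40) and Slc2a1 (-5.01). The related lists had 8 higher and 7 lower of 22 other HIF pathway genes, 4 and 3 of 16 transporters and isozymes, and 1 and 1 of 9 pentose phosphate genes.

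Smooth muscle cells, which wrap arterioles, had more of several glycolysis genes, among them Pfkp, Aldoa and Gapdh, and less Ankrd37, Ddit4, Bnip3 and Epas1. Of 29 genes tested 12 were higher than in endothelium (26.7% of all genes) and 6 lower (34.5%), with a median of 0.01 beside -0.13 over all genes. In upper glycolysis 5 of 9 rose and 1 fell, and in lower glycolysis 3 of 5 rose. Gapdh was 448 to 980 CPM (median 645) against 199 to 524 CPM (median 297), higher in 6 of 6 libraries (1.13 ± 0.10; edgeR adjusted p = 8.11e-13). Aldoa was 304 to 813 CPM (median 629) against 187 to 447 CPM (1.17 ± 0.13; edgeR adjusted p = 4.76e-07). Pfkp was 64.7 to 104 CPM against 17.8 to 30.4 CPM, with no overlap (1.81 ± 0.15; edgeR adjusted p = 2.80e-13).

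P4ha2 was 16.6 to 72.4 CPM against 8.20 to 34.8 CPM (1.62 ± 0.43; edgeR adjusted p = 0.0170), a call that was lost without Control 1 or without iECKO 3. Higd1a was 133 to 351 CPM against 89.5 to 156 CPM, higher in 6 of 6 (1.09 ± 0.12; edgeR adjusted p = 1.55e-08). Hk2 rose by 5.38 at levels of 4.13 to 27.5 CPM. Lower were Ankrd37 at 0 to 21.6 CPM (-3.24 ± 0.27), Ddit4 at 15.2 to 64.8 CPM (-1.60 ± 0.25), Bnip3 at 15.1 to 26.9 CPM against 41.0 to 55.3 CPM (-1.29 ± 0.17), Ndrg1 at 192 to 371 CPM (-0.92 ± 0.11) and Epas1 at 635 to 770 CPM against 951 to 1341 CPM (-0.73 ± 0.09). These ranges lay below those of endothelium in each case. The median mitochondrial share of UMIs was 7.79 to 9.504% in smooth muscle and 3.26 to 4.51% in endothelium, and the dissociation-stress genes summed to 14130 to 23090 CPM against 8435 to 12200 CPM, both without overlap. Their part in the result was not tested. The related lists had 8 higher and 10 lower of 23, 13 and 3 of 18, and 2 and 3 of 9, in the order used before.

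Directly against pericytes, smooth muscle cells had 8 of 17 genes tested higher (31.1% of all genes) and 3 lower (31.0%), with a median of 0.42 beside 0.00 over all genes. Ndrg1 (2.53 ± 0.25), Higd1a (1.89 ± 0.19), Eno1 (0.74 ± 0.27), Gapdh (0.68 ± 0.12) and Pfkp (0.68 ± 0.26) were higher. P4ha1 was 11.1 to 48.8 CPM in smooth muscle, below the 56.1 to 129 CPM of pericytes without overlap (-1.99 ± 0.23; edgeR adjusted p = 1.45e-09). Epas1 (-0.75 ± 0.11) and Pkm (-0.37 ± 0.13) were lower too. Neither class had been filtered for markers of the other. Smooth muscle markers summed to 41230 to 73020 CPM in smooth muscle and 3518 to 7352 CPM in pericytes. Pericyte markers summed to 1895 to 3893 CPM and 21970 to 30280 CPM in the same order, and the part of such mixing was not tested. Pfkp, Eno1 and Pkm lost their calls in several alternatives: Pfkp was 0.26 in the iECKO libraries alone, Eno1 0.52 in the Control libraries alone and Pkm -0.03 with no filter on low counts.

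Microglia, the resident macrophages of the brain, had more Hk2, Pfkfb3, Slc16a3, Pdk1 and P4ha1 than endothelium and far less Ndrg1, Epas1, Pfkp and Hk1. Of 29 genes tested 8 were higher than in endothelium (26.9% of all genes) and 16 lower (35.5%), with a median of -0.48 beside -0.12 over all genes. Hk2, the inducible hexokinase, was 303 to 693 CPM in microglia (median 407) and 0.0390 to 0.695 CPM in endothelium, 10.77 ± 0.23 higher on the log2 scale (edgeR adjusted p = 2.41e-26). Hk1 went the other way, 7.23 to 28.8 CPM against 54.2 to 70.5 CPM (-2.03 ± 0.22; edgeR adjusted p = 4.96e-11). The hexokinases thus moved in opposite directions, with no overlap between the classes in either gene.

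Pfkfb3, Slc16a3 and Pdk1 were higher too, and Ldha, at 93.9 to 240.1 CPM against 226 to 414 CPM, was lower in 6 of 6 libraries (-0.88 ± 0.13; edgeR adjusted p = 1.43e-07). Pfkfb3 was 57.8 to 101 CPM against 8.59 to 19.2 CPM (2.69 ± 0.18; edgeR adjusted p = 2.46e-17). Slc16a3, the lactate exporter, was 21.7 to 48.0 CPM against 0.867 to 5.31 CPM (4.12 ± 0.30; edgeR adjusted p = 4.93e-16). Pdk1, the mitochondrial kinase that inhibits pyruvate dehydrogenase, was 42.6 to 99.9 CPM against 9.30 to 15.9 CPM (2.44 ± 0.17; edgeR adjusted p = 7.12e-17). Pfkfb3, Slc16a3 and Pdk1 lay above endothelium in every library. P4ha1 was 166 to 229 CPM, also without overlap (2.65 ± 0.13; edgeR adjusted p = 1.17e-21), and Vhl (1.72), Gapdh (0.83) and Mif (0.34) rose. The dissociation-stress genes summed to 17050 to 30310 CPM in microglia against 8435 to 12200 CPM in endothelium, without overlap, and their part in the result was not tested.

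Among the 16 lower genes, Ndrg1 was 0 to 11.5 CPM (-6.57 ± 0.24; edgeR adjusted p = 9.23e-28) and Epas1 10.2 to 43.2 CPM (-5.51 ± 0.19; edgeR adjusted p = 6.81e-29). Hif1a, at 93.9 to 135 CPM, did not pass (-0.16 ± 0.13; edgeR adjusted p = 0.294). The HIF alpha subunits thus differed: Epas1 lay far below endothelium and the ranges of Hif1a overlapped. Pfkp, at 0 to 7.23 CPM (-4.87 ± 0.53), and Ankrd37, at 0 to 34.3 CPM (-3.39 ± 0.24), were lower without overlap. The microglial mean was 2.17% of the endothelial mean for Epas1 and 0.991% for Ndrg1. The share of Cldn5, an endothelial transcript that microglia should lack, was 1.71%. Pfkp, P4ha2 and Ankrd37 had larger shares, 6.4, 7.9 and 10.3%. Whether such levels are background from endothelial transcripts was not tested. In pericytes the Cldn5 share was 2.20%, while Epas1 stood at 82.7%. Pkm, Ldha, Gpi1 and Pgk1 were lower in microglia by 0.37 to 1.15 on the log2 scale. Related genes included the leukocyte hexokinase Hk3 (8.10), at 7.23 to 46.7 CPM, and Ldhb (4.28), which rose, and Slc2a1 (-5.19), which fell. Other HIF pathway genes had 5 higher and 9 lower of 20, transporters and isozymes 6 and 5 of 17, and the pentose phosphate pathway 5 and 1 of 9.

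**Figure D5:**
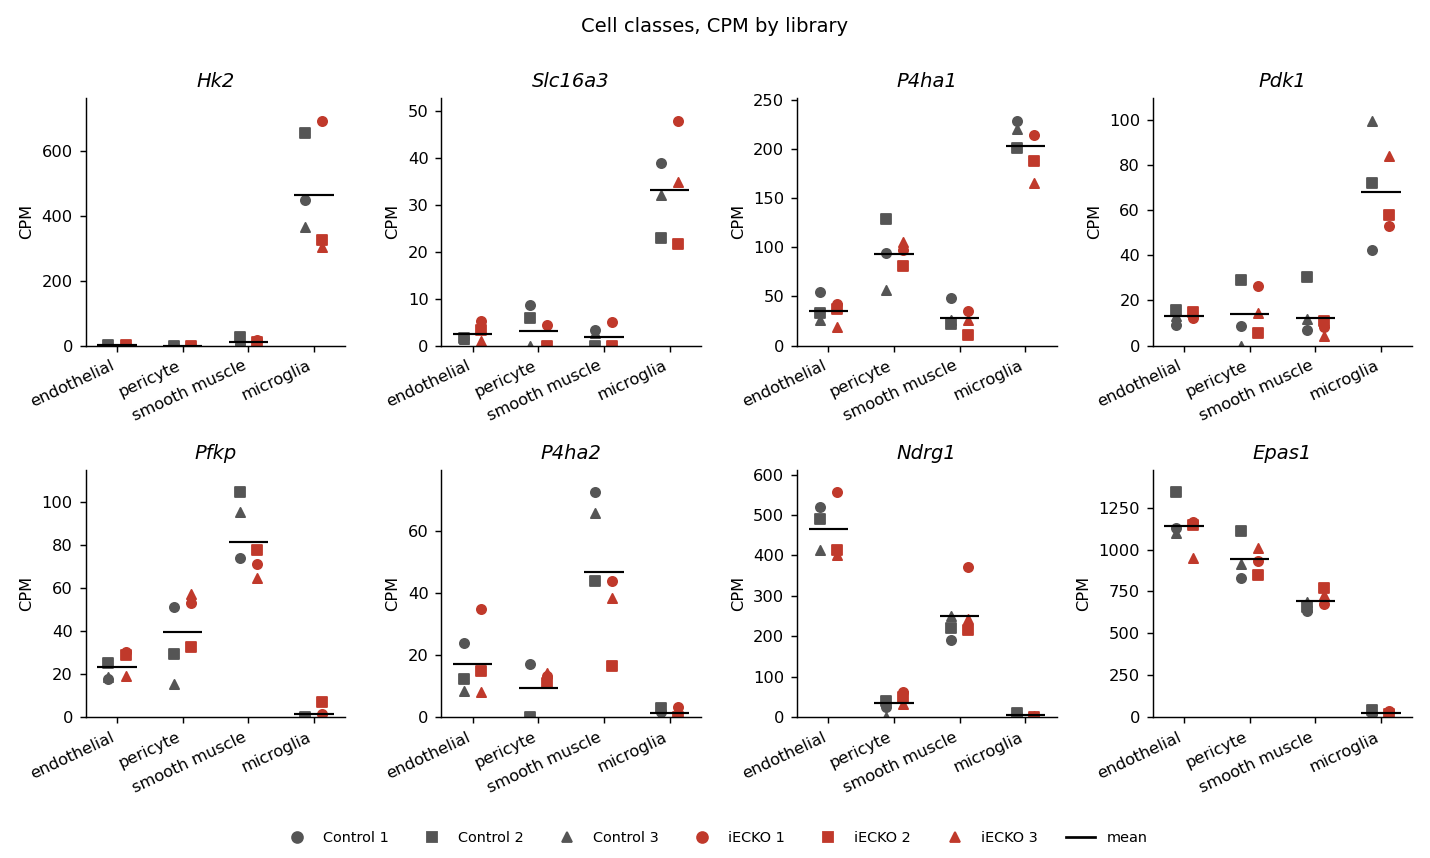
CPM by library in endothelial, pericyte, smooth muscle and microglia sums for 8 genes, Control in grey and iECKO in red, symbols for replicate numbers and bars for the mean of 6 libraries. Hk2, Slc16a3, P4ha1 and Pdk1 are highest in microglia, Pfkp and P4ha2 in smooth muscle, and Ndrg1 and Epas1 in endothelium, where the Epas1 range of 951 to 1341 CPM overlaps that of pericytes.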

How the data were processed

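The deposited files hold raw UMI counts per gene and cell barcode for 6 libraries, made by the authors with Cell Ranger 6.1.1 on mm10 per the file headers and the submitters' processing notes. Barcodes with at least 1000 UMIs, 500 genes and at most 15% mitochondrial UMIs were kept. Predicted doublets and barcodes mixing markers of unrelated classes were removed, with pericytes, smooth muscle and fibroblasts counted as related. Cells were clustered with scanpy 1.11.5 (2000 variable genes, the 31 genes, related genes and Cldn5 left out) and named from fixed marker lists. Counts were summed per library and class, from at least 20 cells, and tested with edgeR 4.0.16 (robust quasi-likelihood, TMM, two-sided, Benjamini-Hochberg over all genes tested, adjusted p under 0.05). Genotype was fitted without a block and with the replicate number as a block, and other contrasts with the library as a block. DESeq2 1.42.0 and other filters were alternatives. Shares of all genes called are given for the main and the blocked edgeR fits only. Same-numbered libraries deviated together over 13251 endothelial genes (r 0.435, 0.523 and 0.507, other pairings -0.384 to -0.103), and this pairing comes from the data, since the labels do not say what a number shares. Deviations were taken from group means, so positive values in some pairings force negative ones in others, which are no separate evidence. Genes given library by library were those called between genotypes, the 5 largest called differences each way per contrast that reach 20 CPM, the HIF alpha subunits and the 5 highest in endothelium. The 31 genes and the related lists were chosen with earlier results of these data known. The edgeR fits of capillary genotype, arterial against capillary cells and Apln-positive against Apln-undetected cells were tested on simulated counts. The other comparisons and DESeq2 were not.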

Additional observations from a re-analysis of the deposited data

Results flagged for a closer look

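The genotype difference of Ankrd37 differed between endothelial zones. It was lower in venous than in capillary cells by a log2 difference of -1.04 (edgeR adjusted p = 0.00170; interaction of zone and genotype with libraries as blocks). The capillary values were 56.3, 79.3 and 61.4 CPM in Control and 417, 90.9 and 48.1 CPM in iECKO, and the venous values 69.5, 77.2 and 55.3 CPM in Control and 195, 38.7 and 31.3 CPM in iECKO. The Apln-led subcluster, at 41.2, 18.0 and 3.08% of endothelial cells in iECKO 1 to 3, belongs to the capillary class, and its part in this difference was not tested.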

How the results depend on the processing

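Counts are genes of the set called, in both directions together, without the share of all genes called under each alternative. In the genotype comparison of capillary cells the replicate block gave 5 calls, 1 with the pair numbered 1 left out and 11 with the pair numbered 3 left out, and leaving out single libraries without the block gave 0 to 1. In all endothelial cells the block with the pair numbered 3 left out gave 2 calls, and leaving out single libraries gave 0 to 0, as it did in arterial cells, pericytes, smooth muscle and microglia. The replicate block on all 6 libraries changed no other call of the set between genotypes. Venous cells gave 1 call with no filter on low counts and 0 to 1 without single libraries. Pericytes against endothelium gave 6 calls under stricter cell filters, which left only Control 2 and Control 3, 8 in control libraries only, 8 with cells matched on depth and 13 to 14 without single libraries. Smooth muscle gave 17 to 19 against endothelium, and against pericytes 8 to 14, with 20 calls with no filter on low counts and 7 in iECKO libraries only. Ranges without single libraries were 22 to 24 for microglia, 14 to 14 for arterial and 12 to 16 for venous cells, 16 to 17 for Apln-positive cells and 7 to 12 for the Cldn5 gate, which fell to 7 without iECKO 1 and to 6 with DESeq2. The interaction with genotype gave 1 call in arterial and 2 in venous cells with no filter on low counts, and 0 to 2 and 1 to 3 without single libraries, the highest without iECKO 3. Pfkp in pericytes turned to -0.72 in those 2 libraries under the stricter cell filters. Of 1074 alternative values for 73 single-gene results, 1036 kept direction and side of the threshold, 26 lost the call, 11 gained it and 1 reversed. A gene that was not tested in an alternative has no value there and is not counted. The causes were not tested. Not run, for lack of cells, were stricter filters in mural genotype and smooth muscle contrasts and depth matching of smooth muscle with pericytes.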
